A study of Mus musculus with 47 samples.

Results

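The genes described here carry antigen presentation by MHC class I together with the immunoproteasome, and they were chosen by gene symbol. They number 10, and 10 of 10 were found, among 51912 genes in each of the 3 tables of bone marrow-derived macrophages (BMDM) and among 12771, 23772, 22599 and 22863 genes in the 4 tables labelled Raw264.7. H2-K1 and H2-D1 encode the classical class I heavy chains, and B2m encodes the light chain they fold with. Tap1 and Tap2 encode the paired subunits of the peptide transporter of the endoplasmic reticulum, and Tapbp encodes tapasin, which bridges that transporter and the empty heavy chain. Psmb8, Psmb9 and Psmb10 encode the catalytic subunits of the immunoproteasome, and Nlrc5 encodes the transactivator of class I genes.

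Cells display fragments of their own proteins on class I molecules, where CD8 T cells read them. Interferons and microbial products raise this machinery in macrophages, and the immunoproteasome then takes the place of the constitutive proteasome in newly made particles. ZMYND8 is a chromatin reader protein, and p65, encoded by Rela, is a subunit of NF-kB, a factor that binds class I promoters.

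The study compared macrophages with and without ZMYND8, and cell lines carrying mutant ZMYND8 or p65, to ask which inflammatory genes these proteins control. RNA-seq was made of 12 libraries with 1 library per group, so no difference between groups has a replicate check. In the BMDM experiment, RNA of 3 biological replicates was mixed for each library. BMDM were grown with M-CSF at 20 ng/ml and left untreated (M0), given LPS at 100 ng/ml for 6 h (M1) or given IL-4 at 20 ng/ml for 6 h (M2). The libraries labelled WT came from gender- and age-matched littermates carrying the floxed Zmynd8 alleles without deletion, and those labelled Zmynd8 cKO from mice heterozygous for Lyz2-Cre, which deletes exons 6 to 7 in myeloid cells. Both carry the strain label C57BL/6, and a cell that escaped Cre keeps an intact gene. The libraries labelled Raw264.7, a mouse macrophage line edited with LentiCrispr, are named Zmynd8 KO, Zmynd8 KO with WT Zmynd8 put back, Zmynd8 KO with the D/E-A mutant (acidic residues of the disordered region changed to alanine), p65 KO, p65 KO with WT p65, and p65 KO with the p65 mutant K122R. The 3 p65 lines are labelled as LPS-treated without dose or time, and the labels of the 3 Zmynd8 lines name no treatment, while the study's text places RNA-seq of the WT Zmynd8 and D/E-A lines under LPS. The labels also give C57BL/6 for Raw264.7, a line that was raised from BALB/c mice.

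Library totals ran from 22597421 to 28386625 estimated counts in BMDM and from 15127110 to 21042628 recovered reads in the libraries labelled Raw264.7. Levels in BMDM are given as CPM, counts scaled to a common library total, and levels in the others as the deposited signal, reads divided by 1 size factor per library, which compares the 2 libraries of 1 table only. A gene was called higher or lower when log2 of the ratio of 2 libraries, after adding 1 to each level, passed a fold of 1.2. Brackets after a log2 value hold its exact 95% interval (Clopper-Pearson, from the reads of both libraries), a measure of counting error and of nothing else. Comparisons that use the same library share its error.

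The targeted gene comes first and was read against the labels. Zmynd8 stood at 87.1 (WT) and 81.5 (cKO) CPM at M0, 79.0 and 86.8 CPM after LPS, and 128 and 151 CPM after IL-4. The log2 ratio of the library labelled cKO to the library labelled WT was -0.10 at M0, 0.13 after LPS and 0.24 after IL-4, and none was called on CPM. On TPM, counts per gene length, Zmynd8 was 31.4 (WT) and 23.2 (cKO) at M0, a log2 ratio of -0.42 that passes the threshold, and -0.22 less the median of all genes on that scale. After LPS and IL-4 the TPM ratios were 0.21 and 0.14, inside it. Counts over the whole gene do not read the floxed exons separately, so these values do not check the deletion, and WT and cKO stand for library labels throughout.

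In the tables labelled Raw264.7, Zmynd8 had a signal of 116 in the library labelled Zmynd8 KO and 506 in the library labelled with WT Zmynd8, a log2 ratio of -2.11. That value of Zmynd8 stands apart within its own table. It was the only one of 23772 genes in the Zmynd8 KO library whose signal did not come to a whole number of reads within 0.05 (121.5 reads), where every other column of the 4 tables had 0 such genes. Zmynd8 therefore cannot check the label of that library. The members' values there were whole numbers of reads. In the D/E-A library Zmynd8 stood at 509 against 474 with WT Zmynd8. Rela was 5963 in the K122R library and 1571 with WT p65, a log2 ratio of 1.92, and 778 in the p65 KO library against 1574, a log2 ratio of -1.02. Zmynd8 itself had a log2 ratio of -0.72 in K122R against WT p65.

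Marker genes of cell types set the 3 libraries labelled as Zmynd8 lines of Raw264.7 apart from the p65 lines of the same label. Macrophage markers were 7 of 7 present in each library labelled Raw264.7. Neutrophil markers were 8 of 8 present in the table of Zmynd8 KO and WT Zmynd8, with summed signals of 140567 and 198620.0, S100a9 the most abundant in both. In the D/E-A table the same sum was 81155 for D/E-A, led by Ngp, and 186092 for WT Zmynd8. By contrast the p65 lines listed 3 of 8, with sums of 3.06 for K122R, 4.91 for WT p65 and 4.07 for p65 KO, and Ltf at 0 in K122R and p65 KO. B cell markers, 4 of 4 listed in the Zmynd8 lines and 3 of 4 in the p65 lines, summed to 2393 in Zmynd8 KO, 3079 in WT Zmynd8 and 2848 in D/E-A, against 28.5, 8.83 and 10.2 in K122R, WT p65 and p65 KO, Cd79b leading in each. T cell markers summed to 364, 371 and 336 in the same 3 Zmynd8 libraries, with Cd3g at 0 in Zmynd8 KO, and to at most 2.94 in the p65 table of K122R. The dendritic cell list, led by Ccr7, summed to 2929 in Zmynd8 KO and 3331 with WT Zmynd8, and the NK cell list, led by Klrd1, to 18.2 and 48.0. In D/E-A the dendritic list summed to 1752 and the NK list to 12.3. In the p65 lines the dendritic list summed to 519 in K122R, 602 with WT p65 and 651 in p65 KO, and no NK marker was listed.

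The sex-linked genes split the libraries the same way. Xist had a signal of 6817 in Zmynd8 KO, 8829 in WT Zmynd8 and 8252 in D/E-A, with Ddx3y, Eif2s3y and Kdm5d at 0 in Zmynd8 KO. In the p65 lines Ddx3y led, at 1845 in K122R against 392 with WT p65 and at 689 in p65 KO against 393, and Xist was at 0 in K122R. The 3 Zmynd8 libraries are therefore named by their labels, and no cell line is read from them. Since each group has 1 library, no result can be given without them. Macrophage sums were 60025 in Zmynd8 KO and 42208 in WT Zmynd8, and 68398 in D/E-A against 39545, with Fcgr1 the most abundant.

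In BMDM the macrophage markers, 7 of 7 present, summed to 7375 CPM (WT) and 7215 CPM (cKO) at M0, 6261 and 6597 CPM after LPS, and 10096 and 9697 CPM after IL-4. Cd68 was the most abundant at M0 and Csf1r after IL-4. Neutrophil markers summed to 2.33 and 2.35 CPM at M0, 4.22 and 2.56 CPM after LPS, and 382 and 514 CPM after IL-4, where S100a9 led. Elane was at 0 in the M0 and LPS libraries and no neutrophil marker was at 0 after IL-4. The titles of the IL-4 libraries carry sample numbers set apart from those of the M0 and LPS libraries. The other lists were low in BMDM: dendritic cell markers summed to at most 16.0 CPM, B cell markers to at most 17.2, T cell markers to at most 29.1, nearly all Cd4, and NK cell markers to at most 0.498.

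The heavy and light chains were the most abundant members on TPM in every BMDM library. H2-K1 stood at 1228 (WT) and 792 (cKO) CPM at M0, 3485 and 2952 CPM after LPS, and 3105 and 3119 CPM after IL-4. Its lowest library was cKO M0, and both IL-4 libraries lay between cKO LPS and WT LPS. H2-D1 stood at 3006 (WT) and 2346 (cKO) CPM at M0, 6115 and 5001 CPM after LPS, and 3572 and 3555 CPM after IL-4. B2m stood at 3093 (WT) and 2564 (cKO) CPM at M0, 7737 and 6818 CPM after LPS, and 4067 and 3911 CPM after IL-4. For both, the LPS libraries were highest and the M0 libraries lowest. Class I heavy chain genes share much sequence, and how shared reads were divided among them is not known here, so H2-K1 and H2-D1 carry that limit throughout.

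The transporter and tapasin genes shared one order of libraries at the low end. Tap1 was at 180.2 (WT) and 86.6 (cKO) CPM at M0, 924 and 863 CPM after LPS, and 199.95 and 265 CPM after IL-4. Tap2 was at 89.5 (WT) and 61.2 (cKO) CPM at M0, 458 and 417 CPM after LPS, and 112 and 149.9 CPM after IL-4. Tapbp was at 594 (WT) and 325 (cKO) CPM at M0, 2045 and 1851 CPM after LPS, and 716 and 799 CPM after IL-4. For each of these 3 genes cKO M0 was the lowest of the 6 libraries, and in the IL-4 pair cKO stood above WT, whereas in the M0 and LPS pairs it stood below.

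The immunoproteasome subunits followed the same order of treatments. Psmb8, which carries the chymotrypsin-like site, was at 178 (WT) and 153 (cKO) CPM at M0, 562 and 469 CPM after LPS, and 195 and 238 CPM after IL-4. Psmb9 was at 58.5 (WT) and 39.4 (cKO) CPM at M0, 336 and 287 CPM after LPS, and 61.9 and 75.5 CPM after IL-4. Psmb10 was at 103 (WT) and 78.6 (cKO) CPM at M0, 479 and 382 CPM after LPS, and 150.3 and 187 CPM after IL-4. In these 3 genes both LPS libraries were above the other 4, as in 14.5% of the 13074 genes that averaged 10 counts or more over the 6 libraries. Nlrc5 was at 77.9 (WT) and 29.2 (cKO) CPM at M0, 319 and 383 CPM after LPS, and 55.7 and 71.4 CPM after IL-4, the only member whose cKO library exceeded WT after LPS on CPM, a direction that on TPM Tap1 shares.

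**Figure D1:**
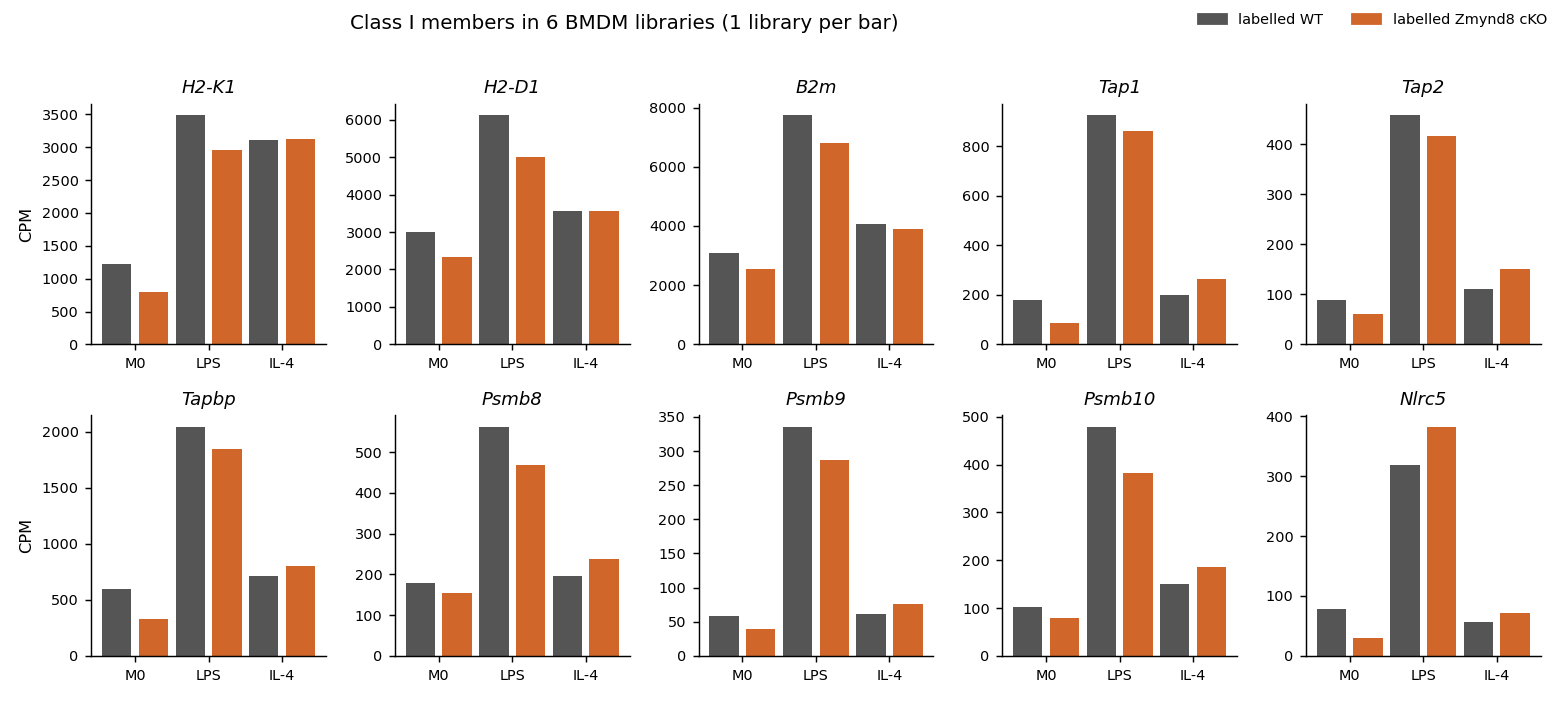
Bars give the level in CPM of each of the 10 class I members in the 6 BMDM libraries, 1 library per bar, grey for libraries labelled WT and orange for those labelled Zmynd8 cKO. The LPS pair is the highest in 9 of 10 panels, H2-K1 being the exception, where 14.5% of all genes had this order. In the M0 pair the cKO bar is lower in 10 of 10 panels, where 51.3% of all genes tested were below WT by any amount, as for Tap1 at 86.6 against 180.2 CPM.

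Per gene length, B2m was the most abundant member and Nlrc5 the least in each BMDM library. In WT M0, B2m had 7270.1 TPM and ranked 14 among 51912 genes, while Nlrc5 had 33.3 TPM and ranked 3494. H2-D1 ranked 30 and H2-K1 ranked 111 in that library, and Tap2 ranked 2563. In cKO M0 the ranks were 20 for B2m, 62 for H2-D1, 214 for H2-K1 and 5365 for Nlrc5. After LPS the WT library placed B2m at rank 4, with 17249 TPM, and Nlrc5 at rank 974.

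Averaged over members after centring each gene, the log2 level was -1.25 in cKO M0, -0.63 in WT M0, -0.33 in WT IL-4, -0.11 in cKO IL-4, 1.08 in cKO LPS and 1.24 in WT LPS. With 1 library per group, no spread shows which neighbours in this order differ. Pearson r of each member with the mean of the others over the 6 libraries was 0.955 for Nlrc5, 0.747 for H2-K1 and between 0.980 (Psmb9) and 0.997 (Tap1) for the rest. H2-K1 stood apart through its IL-4 libraries, which lay near its LPS level. The libraries share treatments, so these r values describe 6 points only.

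At M0, the members were lower in the library labelled cKO than in WT. The comparison asks what loss of ZMYND8 does in resting macrophages. Of the 10 members, 9 were called lower and 0 higher, where 29.0% of all genes tested were called lower and 25.0% higher. On TPM the counts were 10 lower and 0 higher, where 44.1% of all genes were lower and 12.5% higher. The median log2 ratio of members was -0.55, against -0.014 over 12463 genes. Bulk libraries do not separate fewer cells of a type from less RNA per cell. H2-K1 fell with a log2 ratio of -0.63 [-0.66 to -0.61], H2-D1 with -0.36 and B2m with -0.27. Of the loading genes, Tap1 had -1.05 [-1.13 to -0.98], Tapbp -0.87 and Tap2 -0.54. Psmb9 had -0.56 and Psmb10 -0.38, while Psmb8 at -0.22 was not called. The lowest ratio was that of Nlrc5, -1.39 [-1.54 to -1.29]. On TPM the median of all genes shifted by -0.19, and the members' median less that of all genes was -0.57, beside -0.54 on CPM. At a fold of 1.5 the count of members lower was 4, and the edgeR exact test with an assumed spread called 1. That test called 2.17% of all genes in either direction. Here and below, counts at folds of 1.5 and 2 come without a share of all genes and cannot be set against one.

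After LPS, the members differed less between the labels. This comparison puts the same question to macrophages activated by LPS. Counts were 2 of 10 called lower and 0 higher, where 13.3% of all genes were lower and 22.6% higher. The median of members was -0.20, against 0.034 over all genes. H2-D1, with a log2 ratio of -0.29 [-0.30 to -0.28], and Psmb10, with -0.32 [-0.37 to -0.29], were the members called. Psmb8 at -0.26, H2-K1 at -0.24 and Nlrc5 at 0.26 lay just inside the threshold. Tap1 had -0.10 on CPM and 0.039 on TPM. Median-ratio or TMM factors gave 5 members lower, where 17.3% and 16.0% of all genes were lower. TPM gave 0, where 10.5% of all genes were lower, and a fold of 1.5 gave 0.

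After IL-4, Tap1, Tap2, the immunoproteasome subunits and Nlrc5 were higher in the library labelled cKO, while the class I chains lay close to WT. The comparison asks about ZMYND8 in macrophages given the alternative stimulus. Counts were 6 of 10 called higher and 0 lower, where 17.3% of all genes were higher and 13.4% lower, and the median of members was 0.29 against 0.0090. Tap2 had the largest log2 ratio, 0.42 [0.36 to 0.49], followed by Tap1 with 0.41 and Nlrc5 with 0.35 [0.26 to 0.45]. Psmb10 had 0.31, Psmb8 0.29 and Psmb9 0.28. On TPM Psmb10 was at 247.51 (WT) and 293.79 (cKO), inside the threshold, so its call was lost on that scale. Members not called were Tapbp at 0.16, B2m at -0.056, H2-D1 at -0.0070 and H2-K1 at 0.0065, whose sign turned under median-ratio factors, TMM factors and TPM. Neutrophil markers were also higher in the cKO library of this pair, 514 against 382 CPM, and their part in the result was not tested. No member was called at a fold of 1.5.

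The same label contrast thus went opposite ways in M0 and IL-4 for 5 of 10 members, Tap1, Tap2, Psmb9, Psmb10 and Nlrc5, which were called lower at M0 and higher after IL-4, where 4.77% of 12118 genes tested in both were. The difference between M0 and IL-4 was not tested. The IL-4 libraries carry sample numbers set apart from those of M0, and treatment cannot be told apart from what goes with that numbering. On TPM the IL-4 call of Psmb10 was lost.

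**Figure D2:**
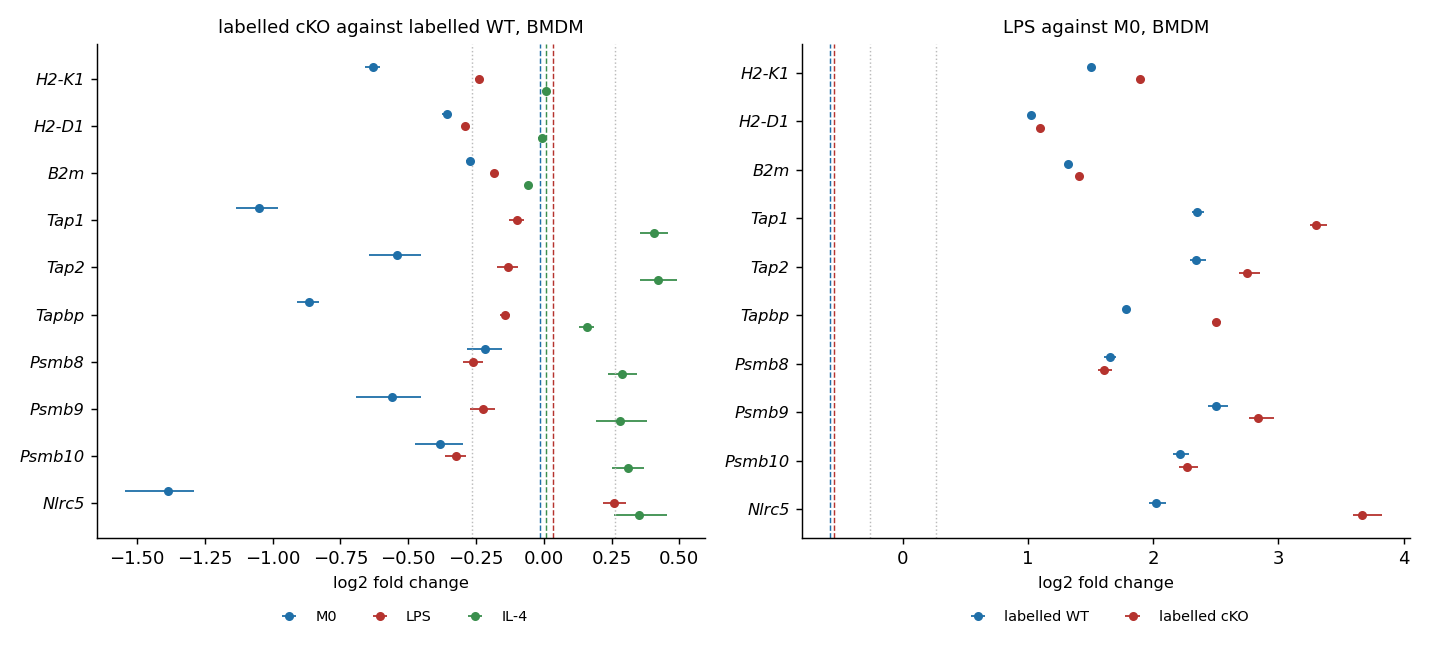
Points give the log2 fold change of each member on CPM and bars the exact 95% limits on reads, for cKO against WT at M0, LPS and IL-4 (left) and for LPS against M0 in each label (right). Dashed lines mark the median of all genes and dotted lines a fold of 1.2. In the left panel Nlrc5 spans from -1.39 at M0 to 0.35 after IL-4, and in the right panel the 10 members lie to the right of both lines, on every scaling tried.

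Members were higher after LPS in both labels, in a comparison that asks how they respond to a microbial stimulus. The median of all genes moved with the scaling by 0.51 (median-ratio factors) and 0.49 (TMM) in WT, and by 0.48 (median-ratio), 0.47 (TMM) and 0.28 (TPM) in cKO, so changes are given relative to that median. In WT, 10 of 10 members were called higher and 0 lower, where 21.7% of all genes were higher and 63% lower, and the median of members less that of all genes was 2.48. In cKO the counts were 10 and 0, where 25.0% and 60.5% of all genes were called, with a relative median of 2.93. Psmb9 had the largest relative log2 change in WT, 3.08, and H2-D1 the smallest, 1.61. In cKO the extremes were Nlrc5 at 4.21 and H2-D1 at 1.64. Tap1 had 2.93 in WT and 3.85 in cKO, from M0 levels of 180.2 and 86.6 CPM to LPS levels of 924 and 863 CPM. The cKO changes started from lower M0 libraries, the same libraries as in the M0 contrast, and the difference between labels was not tested. The count of 10 stood in every alternative tried, where with median-ratio factors 36.2% of all genes were higher in WT and 38.3% in cKO.

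After IL-4 the changes were smaller and less even, in a comparison that asks how the alternative stimulus acts on the same genes. Sample numbers of the IL-4 libraries are set apart from those of M0, so in both labels treatment cannot be told apart from what goes with them. The all-gene median moved by -0.14 (median-ratio) and -0.15 (TMM) in WT, and by -0.17 (median-ratio), -0.20 (TMM) and 0.17 (TPM) in cKO. In WT, 5 of 10 members were called higher and 1 lower, where 41.3% of all genes were higher and 23.1% lower, and the relative median was 0.11. Those shares of members are near the shares of all genes. H2-K1 led with a relative log2 change of 1.19, and Nlrc5 was the member called lower, at -0.62. Psmb10 changed by 0.40 and B2m by 0.25. Tap1 at 0.15, Psmb8 at 0.13 and Psmb9 at 0.080 before that correction were not called, and each turned negative under median-ratio and TMM factors. With those factors 2 members were called higher, where 31.5% (median-ratio) and 31.0% (TMM) of all genes were higher.

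In cKO, 10 of 10 members were called higher and 0 lower after IL-4, where 44.7% of all genes were higher and 26.2% lower. The relative median was 1.08. H2-K1 changed by 1.81, Tap1 by 1.43 and Nlrc5 by 1.09, and the smallest change was that of H2-D1, 0.43. At a fold of 2 the count was 6. The neutrophil marker sum was higher with IL-4 in both labels, 514 against 2.35 CPM in cKO, and their part in the result was not tested.

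The balance of immunoproteasome to constitutive subunits, read on TPM within a library, moved with treatment. Psmb8 over Psmb5, the subunit it replaces, was 1.44 in WT M0 and 0.770 in cKO M0, 5.77 and 5.46 with LPS, then 1.80 and 1.83 with IL-4. Psmb9 over Psmb6 was 0.178 and 0.0840 at M0, 0.615 and 0.611 with LPS, then 0.186 and 0.199 with IL-4. Psmb10 over Psmb7 was 1.07 and 0.670 at M0, 4.06 and 4.21 with LPS, then 1.61 and 1.63 with IL-4. For these 3 pairs the cKO M0 library had the lowest ratio and the LPS libraries the highest. The constitutive subunits themselves were 3 of 3 called higher in cKO at M0, with Psmb5 at 0.73, Psmb6 at 0.56 and Psmb7 at 0.36. On TPM 2 of 3 were called.

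Other genes of the pathway were read from lists. Of 18 other class I heavy chain genes, 13 were measured in each BMDM contrast. At M0, 11 of 13 were called lower in cKO and 1 higher, with H2-T24 at -2.00, H2-Q7 at -1.09 and H2-T23 at -0.89, and Cd1d1 at 0.41. After LPS the counts were 7 lower and 1 higher, with H2-Q6 at -0.82, and H2-Q5, lower at -0.32, was higher on TPM, 0.33. After IL-4 they were 0 lower and 5 higher, with H2-T24 at 0.78. The heavy chain genes outside the members were thus mostly lower at M0, and after IL-4 those called were higher.

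Peptide loading and trimming genes, 6 of 6 measured, were 4 lower and 0 higher in cKO at M0, with the trimming peptidases Erap1 at -0.83 and Lnpep at -1.08. After LPS 3 were higher and 0 lower, Lnpep at 0.77, and after IL-4 0 of 6 were called. The 12 other 20S subunits and assembly genes were 6 higher and 0 lower at M0, as Psmb3 at 0.48, but 0 of 12 were called on TPM. After LPS 0 of 12 were called, and after IL-4 2 were higher, Psma5 at 0.35 and Psma3 at 0.29. Of the 4 proteasome activator genes, Psme4 was lower at M0, -0.62, Psme1 lower after LPS, -0.27, and Psme2 higher after IL-4, 0.36. The constitutive catalytic subunits had 1 of 3 lower after LPS, Psmb7 at -0.32, and 1 higher after IL-4, Psmb5 at 0.29.

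Regulators of class I transcription, 10 of 10 measured, were 5 lower and 1 higher in cKO at M0. Irf1, an interferon-induced factor that acts on class I promoters, had -0.87. After LPS 2 were higher, Nfkb1 at 0.50 and Ciita at 0.45, and 1 lower, Irf8 at -0.32. After IL-4 Ciita was lower at -0.59.

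The 15 interferon-induced genes had larger medians than the members in the M0 and IL-4 pairs. At M0, 15 of 15 were called lower in cKO, with a median of -1.77, Ifit2 at -3.13 and Rsad2 at -2.65. After LPS 2 were lower and 0 higher, Usp18 at -0.33 and Isg15 at -0.27, whereas TPM gave 2 higher and 0 lower. After IL-4 13 of 15 were higher, with a median of 1.42, Cxcl10 at 2.09 and Gbp5 at 1.84. LPS against M0 raised 14 of 15 in WT and 14 of 15 in cKO. IL-4 against M0 left 11 of 15 lower in WT, and 14 of 15 higher and 1 lower in cKO, Cxcl9 at -0.50, which was higher on TPM, 1.03. Only Ifnb1 and Ifng were read among the interferon genes themselves, and in BMDM both were near the floor. Ifnb1 had 0 counts in both M0 libraries, 61 in WT LPS and 28 in cKO LPS, and Ifng had at most 1 count in a BMDM library.

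The remaining lists after a stimulus are given against M0. Of the other heavy chains, 11 were higher and 2 lower with LPS in WT, 11 and 1 in cKO, 8 and 4 with IL-4 in WT, and 11 and 1 in cKO. H2-Q5, higher with LPS in WT at 3.30, was lower on TPM, -0.45. Loading and trimming genes were 1 higher and 4 lower of 6 with LPS in WT and 3 and 3 in cKO. With IL-4 they were 3 and 2 in WT and 3 and 2 in cKO. The regulators were 7 higher and 1 lower of 10 with LPS in both labels, Rfxap at -0.73 in WT, where under either factor 0 were lower, and -1.03 in cKO, and the activators 3 higher and 1 lower of 4 in both, Psme3 at -1.38 and -1.42. Constitutive catalytic subunits were 2 higher and 1 lower with LPS in WT, where Psmb5 at -0.36 turned positive under median-ratio and TMM factors. In cKO they were 0 higher and 2 lower of 3, Psmb5 at -1.30 and Psmb7 at -0.35, and Psmb7 turned positive under the same factors. The other 20S and assembly genes were 7 higher and 1 lower of 12 with LPS in WT and 2 and 4 in cKO, but 11 and 0 in WT and 8 and 0 in cKO under either factor, and 5 and 1 in WT and 5 and 2 in cKO on TPM. With IL-4 they were 3 and 0 in WT and 3 and 1 in cKO, then 1 and 2 in WT and 1 and 4 in cKO under either factor, and 6 and 0 in WT and 8 and 0 in cKO on TPM. With IL-4 the regulators were 7 higher and 2 lower of 10 in WT and 6 and 1 in cKO, Rfxap at -0.94 and -1.14. The activators were 1 higher and 0 lower of 4 in WT and 3 and 0 in cKO, Psme2 at 0.40 and 0.92, and under either factor 0 were called in WT. Of the constitutive catalytic subunits 0 were higher and 0 lower with IL-4 in WT and 0 and 2 in cKO, Psmb5 at -0.64 and Psmb6 at -0.36.

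The 10 genes most like the members, by Pearson r over the 6 BMDM libraries with the members' mean among 9923 genes with at least 100 counts on average, were Tor3a (0.998), Enpp4, Gm6264, Arf4, Irf1 (0.996), P4ha1, Oas1c, Mfsd7a, Phf11c and Slfn2 (0.995). Tor3a stood at 208 (WT) and 110.4 (cKO) CPM at M0, 895 and 846 CPM after LPS, and 266 and 322 CPM after IL-4. Irf1 stood at 59.0 (WT) and 31.8 (cKO) CPM at M0, 771 and 775 CPM after LPS, and 116 and 137 CPM after IL-4. Both share with Tap1 a lower cKO library at M0 and a higher one after IL-4.

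Of the libraries labelled Raw264.7 the p65 lines come first, since their neutrophil markers were near 0. H2-K1 had a signal of 6016 in K122R, 5009 with WT p65 and, in the other table, 5936 in p65 KO. H2-D1 had 18517, 10926 and 13232 in the same order, and B2m 28086, 18805 and 20856. Tap1 had 5475, 4565 and 4469. For these 4 genes K122R stood above WT p65 within their shared table. Psmb10 had 1865, 1073 and 1399.7, and Nlrc5 4193, 3392 and 3190.0. The WT p65 library serves as control in both tables, with Psmb10 at 1075 in the p65 KO table. For the other members the K122R table gave, in K122R and with WT p65, 1986 and 1910.0 for Tap2, 13720.5 and 9186 for Tapbp, 2905 and 2923 for Psmb8, and 903 and 637 for Psmb9. Psmb8 alone among the 10 members was lower in K122R.

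K122R against WT p65, which asks what this residue of p65 does under LPS, gave 7 of 10 members called higher and 0 lower, where 30.8% of all genes were higher and 32.5% lower. The median of members was 0.40, against 0.0069. Psmb10 had 0.80 [0.69 to 0.91], H2-D1 0.76, B2m 0.58, Tapbp 0.58, Psmb9 0.50 and Nlrc5 0.31. H2-K1 at 0.26 was just past the threshold and Tap1 at 0.26 just inside it. Tap2 at 0.056 turned negative on recovered-read CPM, and Psmb8 at -0.0090 turned positive with TMM factors. At a fold of 1.5, 2 members were called, and recovered-read CPM gave 5, where 14.0% of all genes were higher. The sex-linked genes summed to 3563 in K122R against 854 with WT p65, and what sets these libraries apart beyond the label was not tested.

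The p65 KO library against WT p65, which asks what loss of p65 does, gave 5 of 10 members higher and 0 lower, where 26.3% of all genes were higher and 25.7% lower. The median of members was 0.26, against 0.0098. The immunoproteasome subunits were all among those called, Psmb9 at 0.41 [0.26 to 0.56], Psmb10 at 0.38 and Psmb8 at 0.33, with Tap2 at 0.37 and H2-D1 at 0.27. B2m had 0.15, Tap1 -0.034 and Nlrc5 -0.092, none called. At a fold of 1.5, 0 were called. Both p65 comparisons gave positive medians, and they share their control library. Rela itself was higher in K122R and lower in p65 KO, and its part in the member values was not tested.

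Of the lists in these lines, other heavy chains were 8 higher and 1 lower of 14 in K122R, H2-T23 at 0.81, and 3 higher of 15 in p65 KO. Interferon-induced genes were 10 of 15 higher in K122R, Gbp2 at 0.99, and 2 of 15 lower in p65 KO, Rsad2 at -0.50 and Gbp5 at -0.46. Of the 9 regulators other than Rela, which the edit sets, 2 were higher in K122R, Irf1 at 0.75 and Ciita on 11 against 2 reads [0.32 to 5.73]. In p65 KO 2 were higher, Irf1 at 0.30 and Ciita on 10 against 2 reads [0.14 to 5.60], and 1 lower, Nfkb1 at -0.28. Loading genes were 3 higher of 6 in K122R and 1 higher and 1 lower in p65 KO. Among constitutive catalytic subunits, other 20S genes and activators, 1 of 3, 2 of 12 and 2 of 4 were higher in K122R, 1 of the 20S genes and 1 activator were lower, and 0 of these lists were called in p65 KO.

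In the 3 libraries labelled as Zmynd8 lines, which hold the neutrophil, B cell and T cell markers given above, member signals were larger, in tables scaled on their own. H2-K1 had 69760.4 in Zmynd8 KO and 59955 with WT Zmynd8, and 48420.3 in D/E-A against 56173. B2m had 68309 and 48439, and 56994 against 45384. H2-K1 was higher in Zmynd8 KO and lower in D/E-A than its control, and B2m was higher in both. Psmb10 had 11712 and 15019, and 8436 against 14072. Nlrc5 had 6626 and 5339, and 10117 against 5002. Psmb10 was lower than the control in both tables and Nlrc5 higher.

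D/E-A against WT Zmynd8, which asks what the acidic residues do, gave 4 of 10 members higher and 2 lower, where 36.7% of all genes were higher and 35.9% lower. The D/E-A table lists no gene below 21 reads in its WT Zmynd8 column and goes down to 0 in D/E-A, so those shares leave out genes that are low in the control. The share called higher is close to that of all genes. The median of members was 0.15, against 0.015. Nlrc5 had 1.02 [0.97 to 1.07], Tap1 0.49, B2m 0.33 and H2-D1 0.29. Psmb10 had -0.74 [-0.78 to -0.70] and Psmb8 -0.57. The neutrophil marker sum was 81155 in D/E-A against 186092, the macrophage sum was higher in D/E-A, and the dendritic cell sum was 1752 against 3119.6. The part of these cell markers in the result was not tested. At a fold of 1.5, 1 member was higher and 1 lower.

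The Zmynd8 KO library against WT Zmynd8, which asks what loss of ZMYND8 does, gave 5 of 10 members higher and 1 lower, where 33.8% of all genes were higher and 36.5% lower. The median of members was 0.26, against -0.026. H2-D1 had 0.57 [0.56 to 0.59], B2m 0.50, Tap1 0.50, Nlrc5 0.31 and Tap2 0.29, and Psmb10 had -0.36. Neutrophil markers were lower and macrophage markers higher in this library too, and their part in the result was not tested. Recovered-read CPM gave 3 higher, where 20.6% of all genes were, and at a fold of 1.5 none was called. In both tables of the Zmynd8 lines constitutive catalytic subunits were called lower, 3 of 3 in D/E-A, Psmb5 at -0.88, and 2 of 3 in Zmynd8 KO, Psmb5 at -0.29.

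Among the lists in these tables, interferon-induced genes were 9 of 15 higher and 2 lower in D/E-A, Cxcl9 at 2.48, and 9 of 15 higher in Zmynd8 KO, Cxcl9 at 1.00. Other heavy chains were 2 higher and 4 lower of 12 in D/E-A, H2-Q10 at -1.55, and 5 and 2 of 14 in Zmynd8 KO. Regulators were 7 higher and 2 lower of 10 in D/E-A, Nfkb1 at 1.05, and 5 and 1 in Zmynd8 KO. Loading genes were 4 of 6 higher in D/E-A and 4 in Zmynd8 KO. The other 20S genes were 9 of 12 lower in D/E-A and 3 in Zmynd8 KO, and of 4 activators 2 were higher and 2 lower in D/E-A and 2 higher in Zmynd8 KO.

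**Figure D3:**
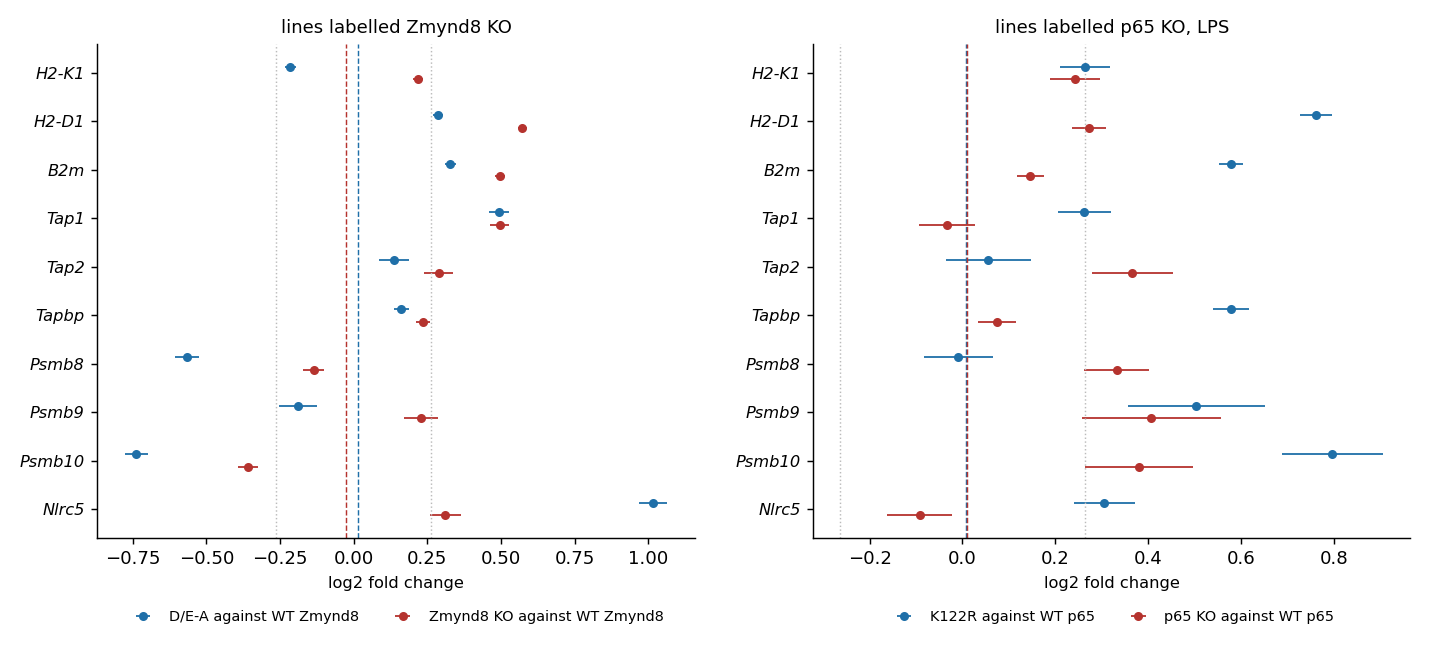
Points give the log2 fold change of the deposited signal for each member and bars the exact 95% limits on reads, for the libraries labelled as Zmynd8 lines (left) and the p65 lines under LPS (right). Dashed lines mark the median of all genes and dotted lines a fold of 1.2. Psmb10 lies left of 0 in both Zmynd8 comparisons, -0.74 and -0.36, and right of 0 in both p65 comparisons.

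The members share position beyond the rule. In the mm10 coordinates of the files, 7 of 10 lie on chromosome 17, 2 on chromosome 8 (Psmb10 and Nlrc5) and B2m on chromosome 2. B2m spans 122147687 to 122153082 (plus strand), Psmb10 105935728 to 105938454 (minus) and Nlrc5 94434354 to 94527272 (plus). On chromosome 17, Tapbp spans 33919478 to 33929290 (plus), H2-K1 33996012 to 34000341 (minus) and H2-D1 35263094 to 35267497 (plus). Between H2-K1 and H2-D1, Psmb9 (34182030 to 34187330, minus strand), Tap1 (34187556 to 34197225), Psmb8 (34198195 to 34201454) and Tap2 (34204479 to 34216321) lie in that order, the latter 3 on the plus strand. Tap1 and Psmb9 thus start back to back on opposite strands, with 225 bases between them.

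Promoters in the RefSeq table (build GRCm38.p6) matched 8 of 10 members, with 9 promoters, and Tap2 and Nlrc5 are named only. Each was searched on both strands for the 3 motifs given here beside their share among 32851 promoters. GAAANNGAAA, the core of the interferon-stimulated response element, was in 1 of 8 members (B2m) and 2.98% of all promoters. CCAAT was in 6 of 8 and 33.8%. The NF-kB consensus was in 3 of 8 (H2-K1, H2-D1 and B2m) and 7.25%. A match describes letters and not a bound site.

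The promoters of H2-D1 and B2m and the stretch shared by Tap1 and Psmb9 are printed as examples: a heavy chain, the light chain and a start region that 2 members share. Each of these members was called lower in cKO against WT at M0. Capitals mark matches of the 3 motifs. In H2-D1 the capitals are the NF-kB consensus, matched on both strands with a shift of 1 base, and 2 CCAAT boxes, the first of them on the reverse strand. In B2m they are the GAAANNGAAA core, the NF-kB consensus and a reverse CCAAT box. In the shared stretch they are a CCAAT box on the Psmb9 side. No match overlaps a match of another motif.
H2-D1 chr17:35262844-35263093, plus strand: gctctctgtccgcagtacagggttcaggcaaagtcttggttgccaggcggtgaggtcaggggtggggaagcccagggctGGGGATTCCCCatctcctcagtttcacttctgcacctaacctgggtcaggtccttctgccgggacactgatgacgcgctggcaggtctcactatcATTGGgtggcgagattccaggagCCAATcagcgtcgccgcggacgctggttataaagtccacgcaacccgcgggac
B2m chr2:122147437-122147686, plus strand: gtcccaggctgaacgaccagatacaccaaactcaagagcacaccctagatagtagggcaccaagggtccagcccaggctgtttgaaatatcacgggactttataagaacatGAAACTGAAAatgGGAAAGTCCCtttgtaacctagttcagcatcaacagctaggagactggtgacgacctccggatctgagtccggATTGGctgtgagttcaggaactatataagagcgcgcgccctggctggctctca
Tap1 and Psmb9 chr17:34187331-34187555, plus strand: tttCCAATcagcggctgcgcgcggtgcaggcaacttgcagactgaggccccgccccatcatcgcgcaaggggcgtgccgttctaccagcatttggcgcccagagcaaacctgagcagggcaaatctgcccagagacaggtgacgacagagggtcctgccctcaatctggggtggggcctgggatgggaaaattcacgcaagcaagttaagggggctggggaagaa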

How the data were processed

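Messenger RNA of 12 libraries was read, 6 labelled BMDM and 6 labelled Raw264.7, of 47 samples in the series, and samples of other assays (ChIP-seq, ATAC-seq) were not used here. Per the labels, reads passed CASAVA 1.4 and Bowtie 0.12.2, and the methods name TopHat and Cuffdiff with mm10. The authors deposited an estimated count and a TPM value per gene for each BMDM library and named no tool for either, and between 75.2% and 76.6% of counts above 0 were whole. For the libraries labelled Raw264.7 the authors deposited a normalised signal per gene, reads divided by 1 size factor per library, with no tool named for the factor. Reads recovered from it were whole within 0.05 for every gene of each column, apart from Zmynd8 in the Zmynd8 KO library. Columns of the authors' own comparisons, which hold fold changes and p-values, are not used here. Rows that are not genes were dropped, 431 in the M0 and LPS tables and 2 in the IL-4 table, and 2 unlabelled value columns were left out. Gene names turned into dates numbered 23, 20, 18 and 0 in the Raw264.7 tables, with no member among them.

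Estimated counts were rounded and scaled to CPM by library totals. A gene was tested when its mean over the 2 libraries reached 10 counts (BMDM) or a signal of 1 (Raw264.7), and 10 of 10 members passed in 11 of 11 comparisons. A pseudocount of 1 was added before log2, and a fold of 1.2 made a call. With 1 library per group, no test over conditions was run, and WT and cKO were not compared as pairs over the 3 treatments. Limits of 95% on reads are Clopper-Pearson (scipy 1.17.1). Read tests compare libraries and not conditions: an exact binomial test, and the exact test of edgeR 4.0.16 (R 4.3.3) run at a biological coefficient of variation set to 0.2, both at a Benjamini-Hochberg adjusted p of 0.05, which called 5934 and 271 of 12463 genes in cKO against WT at M0. Python 3.11.15, numpy 2.4.6, pandas 2.3.3 and matplotlib 3.10.9 did the rest. Calculations across genes were tested on simulated data.

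Alternatives were median-ratio factors, TMM factors, TPM, recovered-read CPM, a pseudocount of 0.1, no filter or a filter at 50 counts or a signal of 5, folds of 1.5 and 2, the read tests, and 8 members without H2-K1 and H2-D1. Named genes are the 10 members, genes of the pathway and marker lists, and the 10 genes most like the members. The members and lists were chosen with earlier results of these data known.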

Additional observations from a re-analysis of the deposited data

Results flagged for a closer look

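Each result here is a member called one way in cKO against WT at one treatment and the opposite way at another, with 1 library per group, and in each the difference was not tested. Of 12118 genes tested at M0 and after IL-4, 4.77% were called lower at M0 and higher after IL-4. Nlrc5 had a log2 ratio of -1.39 at M0 and 0.35 after IL-4, a difference of 1.74. Tap1 had -1.05 and 0.41, a difference of 1.45. Tap2 had -0.54 and 0.42, a difference of 0.96. Psmb9 had -0.56 and 0.28, a difference of 0.84. Psmb10 had -0.38 and 0.31, a difference of 0.69, and from LPS, -0.32, to IL-4 a difference of 0.63. On TPM Psmb10 was at 247.51 (WT) and 293.79 (cKO) after IL-4, and at 746.26 and 657.19 after LPS. Both pairs lie inside the threshold, so its IL-4 and LPS calls were lost on that scale. Neutrophil markers were at 382 and 514 CPM in the IL-4 pair against 2.33 and 2.35 CPM at M0, and their part in these differences was not tested. Sample numbers of the IL-4 libraries also stand apart from those of the M0 and LPS libraries, and treatment cannot be told apart from what goes with them.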

How the results depend on the processing

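Of 77 alternative medians of the members, 57 lay between the medians of the members' lower and upper counting limits, and 20 moved. Of these, 0 changed to the opposite direction of a called median. Of 220 counts of members called, 179 stayed within 1.5 times, where a count of 0 that stayed 0 was taken as unchanged. Both totals include the settings with no filter and a stricter filter. Every member passed those filters, so these values could not move. On TPM the median was -0.77 at M0 and -0.11 after LPS for cKO against WT, 0.28 for IL-4 against M0 in WT and 2.67 for LPS against M0 in cKO. Median-ratio factors gave -0.26 for cKO against WT after LPS, 2.51 and 2.96 for LPS against M0 in WT and cKO, and 0.092 and 1.06 for IL-4 against M0. TMM factors gave -0.24, 2.48, 2.94, 0.082 and 1.03 for the same 5 comparisons. Without H2-K1 and H2-D1 it was -0.16 for cKO against WT after LPS, 2.12 and 2.63 for LPS against M0 in WT and cKO, and 0.21 for IL-4 against M0 in WT. Recovered-read CPM gave 0.19 for Zmynd8 KO and 0.26 for K122R. The cause was not tested.

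A higher fold or a test with assumed spread lowered most counts. Shares of all genes are not given at folds of 1.5 and 2, and those for edgeR count calls in either direction. In cKO against WT at M0, members lower numbered 9 at a fold of 1.2, 4 at 1.5, 2 at 2 and 1 with edgeR. At M0 edgeR called 2.17% of all genes. In the LPS pair 2 lower became 5 with median-ratio or TMM factors, where 17.3% and 16.0% of all genes were lower. The count became 0 with TPM, higher folds or edgeR, where 10.5% of all genes were lower on TPM and edgeR called 0.27%. In the IL-4 pair 6 higher became 0 at a fold of 1.5 or with edgeR, where edgeR called 1.19% of all genes. For IL-4 against M0, 10 higher in cKO became 6 at a fold of 2 and 4 with edgeR. In WT 5 higher became 2 with either factor, where 31.5% (median-ratio) and 31.0% (TMM) of all genes were higher. The same count became 1 at a fold of 1.5, 2 or with edgeR, where edgeR called 17.4% of all genes. The 1 lower in WT became 0 at a fold of 1.5, 2 or with edgeR and stayed 1 with either factor. In the libraries labelled Raw264.7 edgeR called 0 members in 4 of 4 comparisons. Of all genes it called 6.98% in D/E-A, 0.77% in Zmynd8 KO, 1.5% in K122R and 0.12% in p65 KO. A fold of 1.5 left 1 higher and 1 lower in D/E-A and 2 higher in K122R. LPS against M0 kept 10 of 10 under every alternative tried, where edgeR called 40.3% of all genes in WT and 44.9% in cKO.

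The share of calls that were higher moved by over 10 points from 46.3% to 22.04% for cKO against WT at M0 (TPM), from 62.8% to 51.4% after LPS (median-ratio), from 25.6% to 46.2% and 45.0% for LPS in WT and from 29.3% to 47.4% and 46.7% in cKO (median-ratio, TMM), from 64.1% to 50.4% and 49.4% for IL-4 in WT, from 63.1% to 50.8%, 48.8% and 76.6% in cKO (the last TPM), and from 48.6% to 31.3% for K122R (recovered-read CPM). Limits: 1 library per group gives no spread between samples, reads shared among class I genes bear on H2-K1, H2-D1 and the other heavy chains, and the depth bears on counting error only.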

Other observations

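Rn18s-rs5, an entry for ribosomal RNA, took 2343165 reads in the library labelled Raw264.7 Zmynd8 KO, 2526916 with WT Zmynd8 and 1166166 in D/E-A. The p65 lines had 84832 reads in K122R, 28068 with WT p65 and 31028 in p65 KO. These reads are part of the library totals, and their part in the member values was not tested.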
